A study of Rattus norvegicus with 15 samples.

Results

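The 6 genes listed as vessel wall macrophage genes were read here in rat mesenteric arteries. They were the complement chain C1qb, the lysozyme Lyz2, the hyaluronan receptor Lyve1, the cytoplasmic protein Aif1, the tetraspanin Cd53 and the galectin Lgals3. Every probe set that the platform annotation assigns to one of these symbols alone was taken, which gave 9 probe sets, out of 7006 probe sets with a single symbol and 4736 genes on the array. All 9 passed the filter on low signal, which asked for the 40th percentile of signal on 3 arrays or more. Cd53 M57276_at, Aif1 U10894_s_at and C1qb X71127_g_at passed it only because of SHR arrays, as too few WKY arrays reached that level. The strains were SHR, the spontaneously hypertensive rat, inbred for its high blood pressure, and WKY (Wistar Kyoto), the normotensive strain it is usually set against. The 4 groups were SHR collateral arteries (4 arrays), SHR control arteries (4 arrays), WKY collateral arteries (4 arrays) and WKY control arteries (3 arrays). Collateral arteries are those that take over flow once arteries next to them have been occluded, and the labels name no other treatment. The sources used here do not give age, sex, the time since occlusion or the number of animals behind an array, so the spread between arrays may be technical in part.

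The genes were chosen with the strain difference of these same arrays in view. Their SHR and WKY values are therefore a description, with a standard error but with no test, and they support nothing beyond themselves. The comparisons of collateral with control arteries were tested, on arrays that the choice of genes had also used.

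Macrophages live in the outer layer of arteries, where they clear debris, present antigen and take part in the outward growth of collateral arteries. C1q, made largely by macrophages, starts the classical complement pathway, and lysozyme is their secreted antibacterial enzyme. Lyve1 binds hyaluronan and, besides lymphatic endothelium, marks a population of resident macrophages that lie along arteries in mice. Aif1, also called Iba1, binds actin in activated macrophages, Cd53 is a membrane protein of leukocytes in general, and Lgals3 is a sugar-binding protein that macrophages and some fibroblasts produce. In bulk tissue, fewer cells of a type and less RNA per cell cannot be told apart.

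Many macrophage promoters carry a purine-rich site for the transcription factor PU.1, so a stretch upstream of the gene start is shown. It is given for the 4 genes that RefSeq's promoter table (build GRCr8) holds, C1qb, Lyz2, Lyve1 and Cd53. Each stretch is 120 bases long and reads 5′ to 3′ on the gene's strand. Counted from the gene start, C1qb and Lyve1 are shown from -120 to -1. Lyz2 is shown from -169 to -50 and Cd53 from -149 to -30, so these stop short of the start. Of the motifs searched, GAGGAAG stands for the PU.1 core and AGGAAGT for the more general core GGAA of ETS factors. Capitals mark matches to AGGAAGT or GAGGAAG, here always as their reverse complements ACTTCCT and CTTCCTC. The C1qb stretch is chr5:154407828-154407947 (minus strand), the Lyz2 stretch chr7:54798061-54798180 (minus strand), the Lyve1 stretch chr1:174410978-174411097 (minus strand) and the Cd53 stretch chr2:197087926-197088045 (minus strand).
C1qb: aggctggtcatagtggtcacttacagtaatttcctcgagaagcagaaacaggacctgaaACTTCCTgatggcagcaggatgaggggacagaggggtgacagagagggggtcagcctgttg
Lyz2: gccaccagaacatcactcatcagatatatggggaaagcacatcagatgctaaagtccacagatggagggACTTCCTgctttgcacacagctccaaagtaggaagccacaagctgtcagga
Lyve1: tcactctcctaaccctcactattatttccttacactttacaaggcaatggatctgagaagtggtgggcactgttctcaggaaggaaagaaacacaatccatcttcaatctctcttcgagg
Cd53: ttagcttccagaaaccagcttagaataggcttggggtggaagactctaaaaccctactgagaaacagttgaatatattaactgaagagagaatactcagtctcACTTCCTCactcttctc
AGGAAGT was found on either strand in 3 of these 4 promoters, in the windows of 250 bases before to 50 after the start that the table gives, against 8.23% of all 27457 promoters of that length. The match began at -61 in C1qb, at -100 in Lyz2 and at -46 in Cd53, counted from the start that the table uses. In Cd53 it overlapped a match to GAGGAAG, the PU.1 core, which 1 of the 4 promoters and 12.4% of all promoters hold. Either motif was found in 3 of the 4, against 17.5% of all promoters. Lyve1 had neither motif in this window. These are matches of letters and not sites shown to be bound.

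One SHR collateral array, number 3, was unlike the rest. With the remaining 14 arrays it had Spearman correlations of 0.496 to 0.657, where those arrays had 0.805 to 0.931 with each other. Its signals had a 20th percentile of 171, where theirs ran from 43.4 to 83.3. Its spike-in control probe sets had a geometric mean signal of 172402, where theirs ran from 10427 to 56516. RNA quality was read from the actin and Gapdh control probe sets, as the log2 ratio of their 3′ signal over their 5′ signal. It lay between 1.64 and 2.06 in SHR collateral, between 1.71 and 2.31 in SHR control, between 2.10 and 2.62 in WKY collateral and between 2.07 and 2.38 in WKY control arteries. The strains' ranges overlapped in control arteries and did not in collateral arteries, and the part of this ratio in the strain values below was not tested. Values without SHR collateral 3 are given beside those that it moves most. The number of arrays limits the precision, with a median standard error of 0.54 on the log2 scale for the strain difference in control arteries and 0.50 in collateral arteries.

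C1qb, a chain of the protein that starts the classical complement pathway, was several-fold brighter in SHR than in WKY arteries of either kind. Its brighter probe set, X71127_at, had MAS5 signals of 3136, 1778, 3828 and 606 in SHR control arteries, against 518, 776 and 209 in WKY control arteries. In collateral arteries the signals were 1543, 533, 1880 and 1520 in SHR, against 791, 251, 134 and 151 in WKY. The strains did not separate fully in either vessel type. SHR control 4 (606) lay below WKY control 2 (776) and above the other WKY control arrays. SHR collateral 2 (533) lay below WKY collateral 1 (791) and above the other WKY collateral arrays. On the log2 scale the control means were 10.89 ± 1.19 in SHR (SD, n = 4) and 8.77 ± 0.97 in WKY (SD, n = 3), a difference of 2.12 ± 0.68 (SE), or 4.33-fold. In collateral arteries they were 10.27 ± 0.82 in SHR and 7.98 ± 1.17 in WKY (SD, n = 4 each), a difference of 2.30 ± 0.63, and of 2.09 without SHR collateral 3. The other probe set, X71127_g_at, drawn from the same transcript, was dimmer and gave differences of 2.63 ± 0.90 in control and 2.32 ± 0.84 in collateral arteries. Of its 7 WKY signals, 4 lay below their array's 20th percentile, so those folds are uncertain in size.

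Another chain of the same complement protein, C1qc, is named here after its values were seen. C1qc (probe set rc_AA891576_s_at) had signals of 929, 937, 762 and 931 in SHR control arteries, against 502, 1282 and 1151 in WKY control arteries. The strains overlapped, and the log2 difference was -0.03 ± 0.49 (limma, adjusted p = 0.999). In collateral arteries it was 0.18 ± 0.46 (adjusted p = 0.915).

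Lyz2, the lysozyme of macrophages and other myeloid cells, had higher mean signals in SHR than in WKY arteries, with a wide spread within groups. Its probe set rc_AA892775_at read 34765, 5189, 8285 and 2611 in SHR control arteries, against 3578, 1420 and 1103 in WKY control arteries. SHR control 1 stood far above the next array of its group, and the lowest SHR control array lay below the highest WKY control array. The means were 12.95 ± 1.58 in SHR and 10.79 ± 0.89 in WKY (SD, n = 4 and 3, log2 signal), a difference of 2.15 ± 0.69 (SE), which was 1.44 without SHR control 1. In collateral arteries the signals were 16730, 12120, 21062 and 12432 in SHR, against 4659, 4507, 2224 and 16164 in WKY. Here the 4 SHR arrays lay close together, and WKY collateral 4 alone lay within their range. The collateral strain difference was 1.53 ± 0.64, and it was 2.08 without WKY collateral 4.

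Lyve1, the hyaluronan receptor, separated the strains completely in both vessel types. Its probe set rc_AI639246_at read 2542, 1517, 2330 and 1661 in SHR control arteries, against 824, 774 and 411 in WKY control arteries. In collateral arteries it read 1312, 827, 2222 and 2230 in SHR, against 648, 662, 380 and 585 in WKY. No WKY array reached the lowest SHR array of the same vessel type, and even the lowest of all SHR arrays, collateral 2 at 827, lay just above the highest WKY array at 824. The log2 means were 10.94 ± 0.36 in SHR control (SD, n = 4) and 9.32 ± 0.56 in WKY control arteries (SD, n = 3), a difference of 1.62 ± 0.39 (SE) or 3.07-fold. In collateral arteries they were 10.57 ± 0.69 in SHR and 9.12 ± 0.37 in WKY (SD, n = 4 each), a difference of 1.45 ± 0.36 or 2.74-fold, and of 1.27 without SHR collateral 3.

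Lgals3, the galectin that macrophages secrete, separated the strains in collateral arteries and not in control arteries, and whether the strain difference itself differed is tested below. J02962_at read 3039, 2806, 4142 and 2322 in SHR collateral arteries, against 1502, 1739, 1025 and 1556 in WKY collateral arteries, so all SHR arrays lay above all WKY arrays. The difference there was 1.07 ± 0.37 (log2, SE), with means of 11.56 ± 0.35 and 10.48 ± 0.33 in SHR and WKY (SD, n = 4 each), and it was 0.92 without SHR collateral 3. In control arteries the signals were 6537, 2088, 5650 and 1713 in SHR, against 2211, 1870 and 2440 in WKY. SHR arrays 1 and 3 were far above WKY and arrays 2 and 4 were within or below its range, and the mean difference was 0.65 ± 0.40. Without SHR control 1 it was 0.33.

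Aif1, the actin-binding protein also known as Iba1, has 3 probe sets, and they disagreed. The brightest, U17919_s_at, read 842, 218, 339 and 306 in SHR control arteries, against 166, 242 and 264 in WKY control arteries, and 406, 516, 1438 and 328 in SHR collateral arteries, against 127, 240, 153 and 461 in WKY collateral arteries. The log2 differences were 0.76 ± 0.60 (SE) in control arteries, which became 0.36 without SHR control 1, and 1.38 ± 0.55 in collateral arteries, which became 0.93 without SHR collateral 3. U10894_s_at gave 2.28 ± 0.94 and 1.05 ± 0.87, but 8 of its 15 signals lay below their array's 20th percentile, all 3 WKY control arrays among them (46.4, 24.0 and 49.4). U33471_at gave -0.50 ± 0.65 in control and 0.21 ± 0.60 in collateral arteries, the second being -0.22 without SHR collateral 3. Over the 15 arrays U10894_s_at and U33471_at ran against each other (Pearson r = -0.46, Spearman rho = -0.44), while U10894_s_at and U17919_s_at ran together (r = 0.55, rho = 0.66). Which of the 3 reads the Aif1 transcript best was not tested.

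Cd53, a tetraspanin found on leukocytes at large, gave low signals in all groups. M57276_at read 414, 186, 121 and 257 in SHR control arteries, against 81.1, 44.6 and 161 in WKY control arteries, and 167, 139, 528 and 211 in SHR collateral arteries, against 111, 188, 34.2 and 230 in WKY collateral arteries. The groups overlapped in both vessel types. The differences were 1.41 ± 0.74 (log2, SE) in control and 0.99 ± 0.69 in collateral arteries, the second being 0.58 without SHR collateral 3 and 0.42 without WKY collateral 3. WKY collateral 3 and WKY control 2, the lowest signals, lay below their array's 20th percentile.

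**Figure D1:**
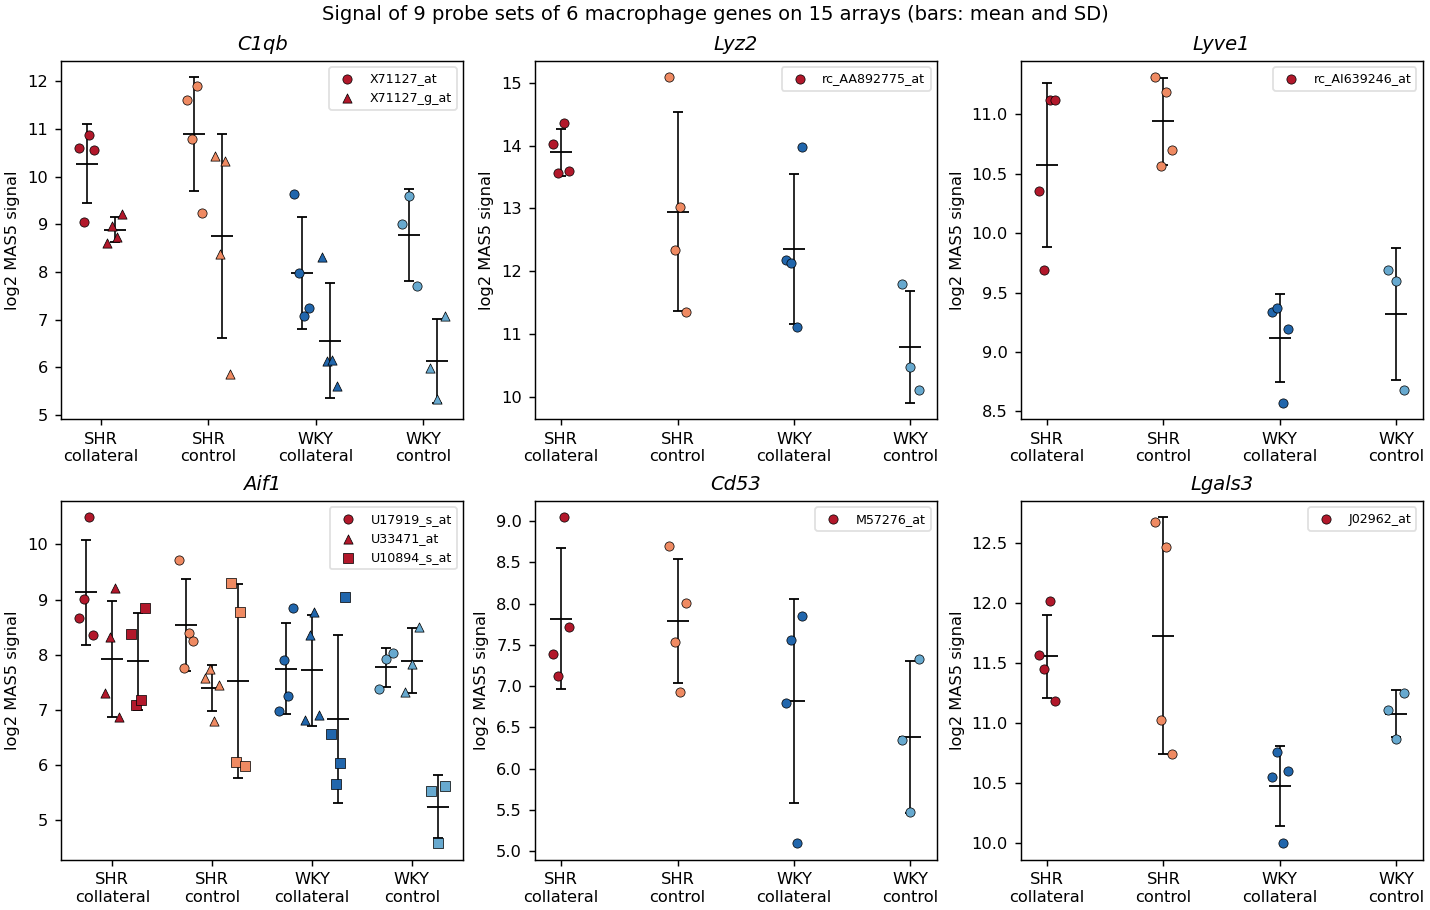
Log2 MAS5 signal of the 9 probe sets (vertical axis) in SHR collateral, SHR control, WKY collateral and WKY control arteries (horizontal axis), with 1 panel per gene, 1 point per array, marker shape for the probe set, and bars for the mean and SD of each group. Lyve1 has no WKY array as high as an SHR array, whereas the 3 Aif1 probe sets order the groups differently.

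Read side by side, the brightest probe set of each of the 6 genes was higher on average in SHR than in WKY, in control arteries for 6 of 6 and in collateral arteries for 6 of 6, which is the property they were picked for. Of all 6512 probe sets tested, 51.6% were above 0 in control and 58.9% in collateral arteries. Cd53 is among the tested probe sets only through its SHR arrays, the strain where it was higher. The median log2 difference over the 6 was 1.51 in control arteries (range 0.65 to 2.15), beside 0.020 over all 6512 probe sets tested. In collateral arteries it was 1.42 (range 0.99 to 2.30), beside 0.12 over all probe sets, and without SHR collateral 3 it was 1.10, beside 0.0068. Groups did not overlap for 1 of the 6 in control arteries (Lyve1) and for 2 of the 6 in collateral arteries (Lyve1 and Lgals3), where 4.85% and 2.07% of all tested probe sets were higher in SHR without overlap. In all 6 genes both SHR groups had higher means than both WKY groups, and within a strain the order of collateral and control arteries varied by gene: collateral arteries had the higher mean for Lyz2 and Cd53 in both strains and for Aif1 in SHR only, and control arteries for C1qb, Lyve1 and Lgals3 in both. These within-strain neighbours are compared below.

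Array by array, the mean log2 signal of the 6 probe sets ran from 9.98 to 11.32 in SHR collateral and from 9.72 to 11.52 in SHR control arteries, against 8.18 to 9.62 in WKY collateral and 8.85 to 9.22 in WKY control arteries. Group means were 10.54 ± 0.56 in SHR collateral (SD, n = 4), 10.47 ± 0.80 in SHR control (n = 4), 9.08 ± 0.62 in WKY collateral (n = 4) and 9.02 ± 0.19 in WKY control arteries (n = 3). The highest array was SHR control 1, where 6 of the 6 genes were above their own mean, and the lowest was WKY collateral 3, where 0 were, as on WKY control 1. WKY collateral 4 came nearest to the SHR arrays, with Lyz2, Aif1 and Cd53 above their means and C1qb, Lyve1 and Lgals3 below.

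**Figure D2:**
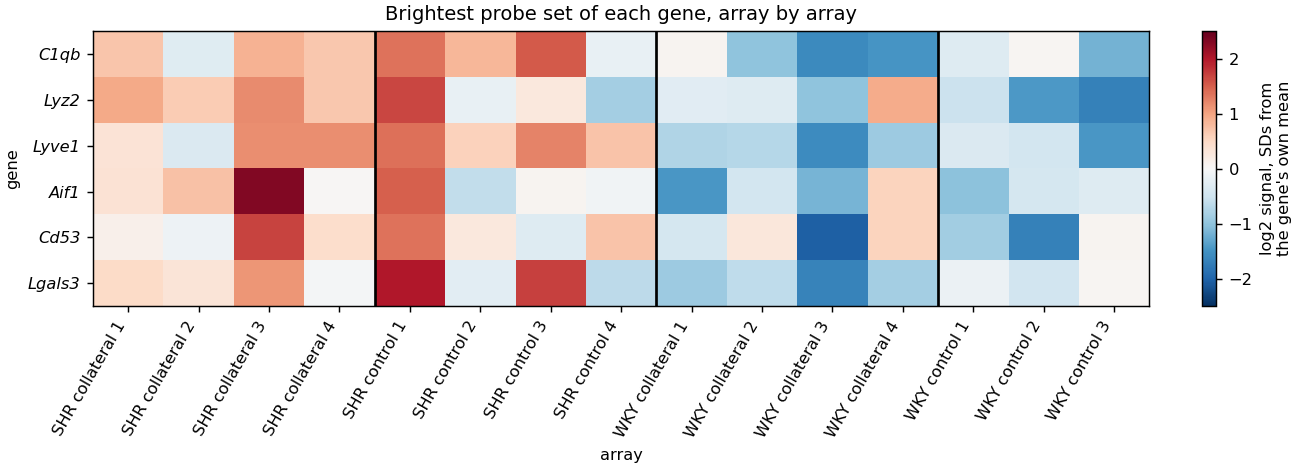
Log2 signal of the brightest probe set of each gene (rows) on each of the 15 arrays (columns, grouped by strain and vessel type), as the number of SDs from that gene's own mean, red above and blue below. SHR control 1 is red for all 6 genes and WKY collateral 3 blue for all 6, and WKY collateral 4 is split, with Lyz2, Aif1 and Cd53 above their means.

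Collateral arteries were next set against control arteries of the same strain, since the title of the series concerns impaired collateral growth in SHR. In SHR, 0 of the 9 probe sets passed limma's test at an adjusted p of 0.05, 0 had an unadjusted p under 0.05 where 3.76% of all tested probe sets did, and the adjusted p values lay between 0.949 and 0.995; across all 6512 probe sets the share called was 0%. Lyz2 stood at 0.94 ± 0.64 (log2 difference, collateral minus control, SE), and it ran from 0.41 without SHR control 4 to 1.65 without SHR control 1. C1qb stood at -0.62 ± 0.63 by X71127_at, which ran from -1.16 without SHR control 4 to -0.21 without SHR collateral 2, and at 0.13 ± 0.84 by X71127_g_at, on the other side of 0. Aif1 stood at 0.59 ± 0.55 by U17919_s_at and at 0.54 ± 0.60 by U33471_at, and these were 0.14 and 0.11 without SHR collateral 3. Cd53 stood at 0.03 ± 0.69, and at -0.38 without that array. Lyve1 stood at -0.37 ± 0.36 and Lgals3 at -0.17 ± 0.37, against -0.55 and -0.33 without it. For every one of these the 4 collateral and the 4 control arrays overlapped. The median over the 6 genes was -0.07, beside 0.06 over all probe sets, and without SHR collateral 3 it was -0.35, beside -0.0050.

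In WKY, 0 of the 9 probe sets passed either (limma, all adjusted p = 0.99988, 0% called across the 6512), and 1 had an unadjusted p under 0.05, where 3.16% of all probe sets did. Lyz2 had the largest difference of the 6 genes' brightest probe sets, with signals of 4659, 4507, 2224 and 16164 in collateral arteries, against 3578, 1420 and 1103 in control arteries. The difference was 1.56 ± 0.69 (SE) with an unadjusted p of 0.0367 in limma, where 1.75% of all probe sets were higher at that level, and it was 1.02 without WKY collateral 4. Lgals3 was the only one of the 6 with no overlap: every collateral array (1025 to 1739) lay below every control array (1870 to 2440), a difference of -0.60 ± 0.40, and 3.09% of all probe sets were lower without overlap. C1qb stood at -0.80 ± 0.68 by X71127_at and at 0.43 ± 0.90 by X71127_g_at, so the direction was not settled. Aif1 stood at -0.03 ± 0.60 by U17919_s_at and at 1.58 ± 0.94 by U10894_s_at, the second with no overlap between collateral and control arrays, as for 3.61% of all probe sets that were higher, but against control signals that were all below the 20th percentile. The median over the 6 genes was -0.12, beside 0.0030 over all probe sets.

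The difference between the strains' collateral changes, tested directly as SHR change minus WKY change, passed for 0 of the 9 probe sets (limma, adjusted p = 0.99969 for each, 0% called across the 6512), and 0 had an unadjusted p under 0.05, where 1.9% of all probe sets did. The estimates were 0.18 ± 0.93 (SE) for C1qb by X71127_at, -0.62 ± 0.94 for Lyz2, -0.16 ± 0.53 for Lyve1, 0.62 ± 0.81 for Aif1 by U17919_s_at, -0.41 ± 1.01 for Cd53 and 0.42 ± 0.55 for Lgals3. Without SHR collateral 3 they were -0.020 for C1qb, -0.78 for Lyz2, -0.35 for Lyve1, 0.17 for Aif1, -0.82 for Cd53 and 0.27 for Lgals3. With all 15 arrays the estimate for each of these genes lay within 1 SE of 0, so neither a larger nor a smaller collateral change in SHR was detectable with these arrays.

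**Figure D3:**
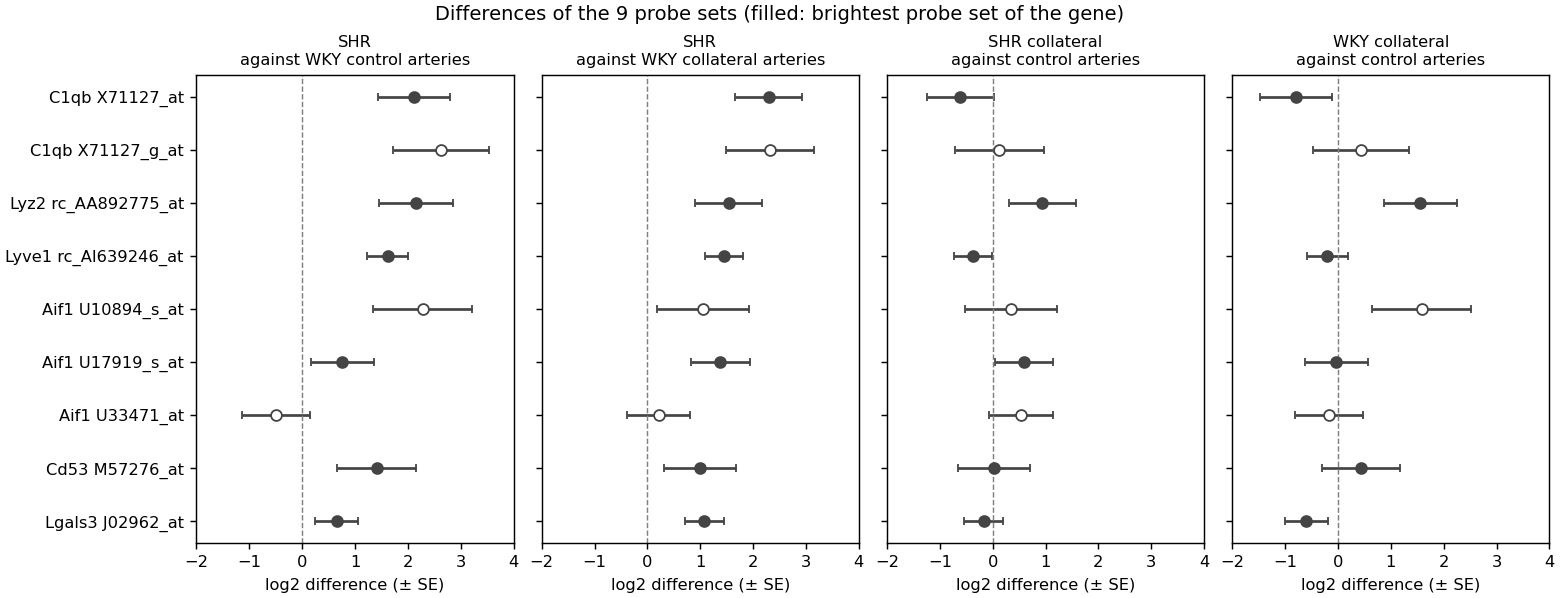
Log2 differences with their SE (horizontal axis) for the 9 probe sets (rows) in SHR against WKY control arteries, SHR against WKY collateral arteries, and collateral against control arteries in SHR and in WKY, with filled points for the brightest probe set of each gene. The strain panels lie right of 0 for all probe sets but Aif1 U33471_at in control arteries, and the vessel panels fall on both sides of 0.

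The 6 genes did not all vary alike from array to array. Over the 15 arrays the 15 pairs of genes had Pearson correlations from 0.40 to 0.90 with a median of 0.62 (Spearman 0.33 to 0.86), a spread to which the strain difference they were chosen for contributes. With each group's mean taken out, the pairs ran from -0.01 to 0.72 with a median of 0.48. The closest pairs were then C1qb with Lyve1 and Lyz2 with Lgals3, both at 0.72, followed by Aif1 with Cd53 at 0.66 and Lyz2 with Aif1 at 0.62. C1qb stood at -0.0037 with Aif1 and at -0.012 with Cd53. Without SHR collateral 3 the first 2 pairs stood at 0.71 and 0.72. All values on an array share its labelling and scaling, so these figures are descriptions.

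Among 5265 other tested probe sets with a symbol, those most like the mean of the 6 standardised signals over 15 arrays belonged to Cd74, which chaperones MHC class II molecules (Pearson r = 0.89, Spearman rho = 0.92), the chemokine Pf4 (0.88 and 0.90), the protease inhibitor Cstb (0.87 and 0.90), the growth factor Igf1 (0.87 and 0.89) and the ribosomal protein Rpl36 (0.87 and 0.87). Without SHR collateral 3 their Pearson values were 0.88, 0.88, 0.85, 0.84 and 0.83. Since the 6 genes were chosen for their strain difference, probe sets that differ between strains rank high here by that choice. The strain values of Cd74 that follow are therefore no separate evidence. Cd74 had signals of 2875, 991, 1220 and 255 in SHR control arteries, against 41.2, 254 and 46.5 in WKY control arteries, and 1869, 1245, 2628 and 841 in SHR collateral arteries, against 346, 125, 25.5 and 355 in WKY collateral arteries. With the group means taken out, the most alike were the small GTPase Arl11 (r = 0.87), Dlat and Pdp2, of pyruvate dehydrogenase and its control (0.86 and 0.82), the sugar phosphate enzyme Pgm1 (0.85) and the membrane glycoprotein Pdpn (0.82). Only Pf4, at 0.82, was near these values among the first 5, and Cd74 stood at 0.72. Without SHR collateral 3 the cathepsins came first, Ctsb over the 14 arrays as they are (0.88) and Ctss after the group means were taken out (0.91).

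The label of the list was then checked on other macrophage markers. Of 3 more defining markers on the array, Itgam and Csf1r did not pass the filter on low signal. The integrin Itgam (U59801_at) lay below the 20th percentile of its array on 14 of 15 arrays. The growth factor receptor Csf1r (X61479mRNA_at) did on 4 of 15. Without this filter Csf1r stood at 0.14 ± 0.73 in control and 1.37 ± 0.68 in collateral arteries (SHR minus WKY, log2, SE). Its groups overlapped in both. SHR collateral 3 read 711, against 107 to 182 on the other SHR collateral arrays. The lipopolysaccharide receptor Cd14 was measured, with signals of 2768, 1201, 1320 and 930 in SHR control arteries, against 1199, 1299 and 597 in WKY control arteries. The strains overlapped, with a log2 difference of 0.54 ± 0.38 (limma, adjusted p = 0.944), and 0.53 ± 0.35 in collateral arteries (adjusted p = 0.709).

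Genes of 4 further lists, none of them among the 6, were tested for strain differences. Their counts above 0 are set beside all 6512 probe sets, of which 51.6% were above 0 in control and 58.9% in collateral arteries. In control arteries 0 of 53 tested genes of these lists passed limma's adjusted p of 0.05, where 2 of the 6512 probe sets did (0.0307%), and in collateral arteries 0 did, where the share called was 0%. Of 6 tested macrophage identity genes, 3 were above 0 in control and 6 in collateral arteries, with medians of 0.26 and 0.41 (0.11 without SHR collateral 3), and 0 and 1 were higher at an unadjusted p under 0.05, where 3.72% and 4.01% of all probe sets were. The lectin Clec10a had the smallest p, at 1.00 ± 0.59 in control (SE, adjusted p = 0.882) and 1.52 ± 0.55 in collateral arteries (adjusted p = 0.517). The Fc receptor Fcgr2b stood at 0.66 ± 0.43 and 0.52 ± 0.39, Cd80, a costimulatory ligand, at -0.38 ± 0.89 and 0.29 ± 0.83 (control and collateral arteries).

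Of 16 genes of lysosome and phagocyte function, 14 were above 0 in control arteries (median 0.27) and 11 in collateral arteries (median 0.21), where 51.6% and 58.9% of all probe sets were. At an unadjusted p under 0.05, 5 and 4 were higher, beside the same 3.72% and 4.01% of all probe sets. The smallest p belonged to Hmox1, the heme-degrading enzyme, whose signals were 3943, 1425, 2940 and 1825 in SHR control arteries, against 548, 810 and 595 in WKY control arteries. All SHR control values were above all WKY control values, as for 4.85% of all probe sets. The difference was 1.87 ± 0.46 (SE, limma, adjusted p = 0.176). In collateral arteries it was 1.69 ± 0.43 (adjusted p = 0.226), and the strains overlapped, SHR collateral 2 (1263) lying below WKY collateral 1 (1437). The lipid carrier Apoe stood at 1.68 ± 0.46 and 1.26 ± 0.42, Cyba, a subunit of the phagocyte oxidase, at 1.70 ± 0.59 and 0.98 ± 0.55, and the lysosomal protease Ctsb at 0.74 ± 0.33 and 0.78 ± 0.31, none past the threshold.

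Pan-leukocyte genes had 11 of 12 above 0 in control arteries (median 0.48) and 9 of 12 in collateral arteries (median 0.51, 0.18 without SHR collateral 3). Of all probe sets 51.6% and 58.9% were above 0. Of the 12, 1 and 2 were higher at an unadjusted p under 0.05, where 3.72% and 4.01% of all probe sets were. The actin regulator Coro1a stood at 2.79 ± 1.12 and 1.61 ± 1.04, on a probe set below the 20th percentile on 9 of 15 arrays, and Ptprc, the common leukocyte phosphatase, at 1.28 ± 0.65 and 0.83 ± 0.60. The phosphatase Ptpn6 stood at 0.84 ± 0.74 and 1.45 ± 0.69, and the transcription factor Cebpb at -0.55 ± 0.32 and -0.22 ± 0.30. Genes of recruitment and growth lay on both sides of 0: 8 of 19 were above 0 in control arteries (median -0.16) and 10 of 19 in collateral arteries (median 0.0030, and -0.27 without SHR collateral 3), with 1 higher and 3 lower at an unadjusted p under 0.05 in each, where 2.75% and 3.61% of all probe sets were lower at that level. The adhesion molecules Vcam1 and Icam1, which monocytes bind when they enter a vessel wall, stood at -2.72 ± 0.67 and -1.69 ± 0.45 in control arteries, and at -2.07 ± 0.62 and -0.96 ± 0.41 in collateral arteries, with adjusted p between 0.176 and 0.616. Selp, the P-selectin that catches rolling leukocytes, stood at -1.45 ± 0.61 and -0.86 ± 0.56, and the cytokine Mif at 0.57 ± 0.25 and 0.34 ± 0.23. In the comparisons of collateral with control arteries, 0 genes of the 4 lists passed in either strain or for the difference between strains (smallest adjusted p = 0.949), and 4 of 53 in SHR and 2 of 53 in WKY had an unadjusted p under 0.05, where 3.76% and 3.16% of all probe sets did.

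**Figure D4:**
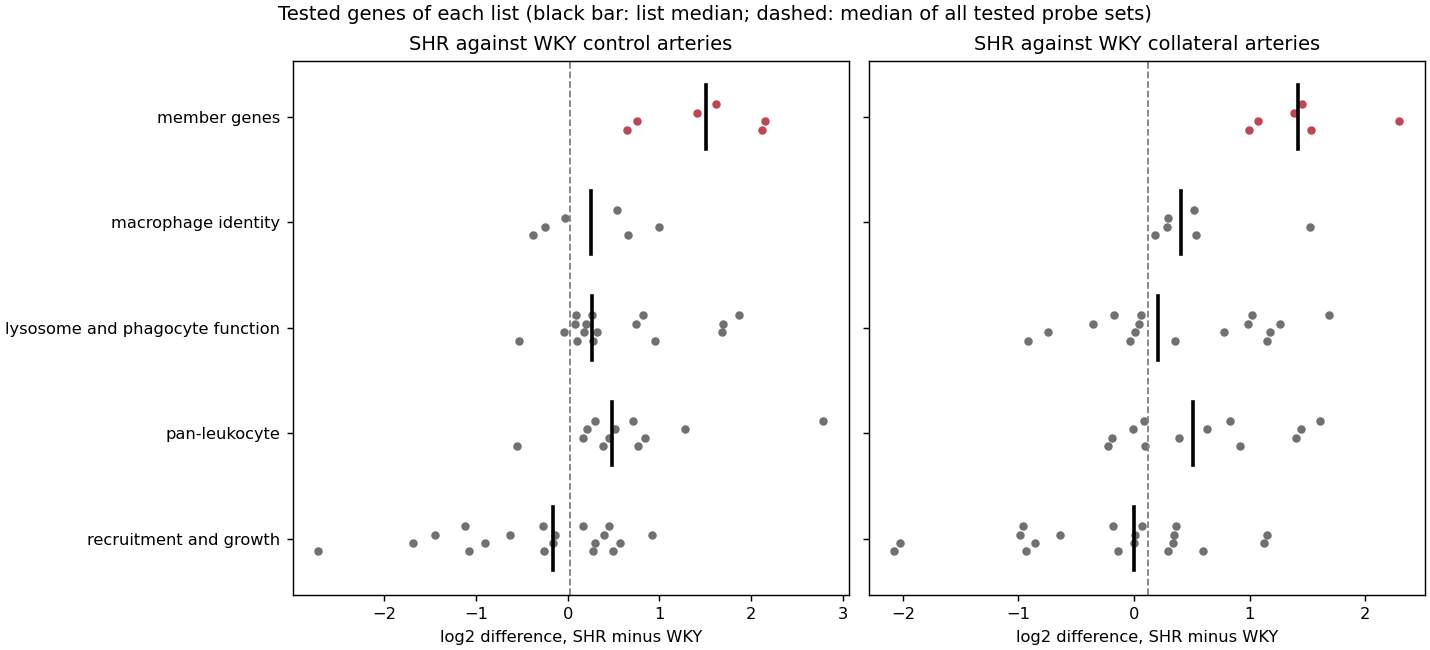
Log2 difference, SHR minus WKY (horizontal axis), of each tested gene of 5 lists (rows) in control and collateral arteries, with a black bar at the list's median and a dashed line at the median of all 6512 probe sets. The member genes, chosen for this difference, lie at 0.65 or more, and the other 4 lists have medians between -0.16 and 0.51.

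Markers of other cell types were set beside these genes in the strain comparisons, where 1 of them, Icam2, passed limma's adjusted p of 0.05. Of all probe sets 51.6% were above 0 in control and 58.9% in collateral arteries. Lyve1 also marks lymphatic endothelium, and 3 of 3 other lymphatic markers on the array were above 0 in each vessel type. Their medians were 1.52 in control and 1.06 in collateral arteries, the second 1.30 without SHR collateral 3. In limma 1 and 0 of the 3 were higher at an unadjusted p under 0.05, where 3.72% and 4.01% of all probe sets were. In control arteries Mmrn1 stood at 1.61 ± 0.67 (SE, limma, adjusted p = 0.683), Reln at 1.52 ± 0.83 (adjusted p = 0.848) and Pdpn at 0.54 ± 0.80. Their summed signal ran from 2335 to 7083 in SHR control arteries, against 985 to 2139 in WKY control arteries, and from 2056 to 7206 in SHR collateral arteries, against 863 to 3288 in WKY collateral arteries, and Prox1, Flt4 and Ccl21 were not analysed here. MHC class II and B-cell markers had 5 of 6 above 0 in each vessel type, with medians of 0.64 and 0.95 and a summed signal of 3250 to 14760 in SHR control arteries, against 1798 to 2620 in WKY control arteries. In each vessel type 2 of the 6 were higher at an unadjusted p under 0.05 in limma. Mast cell markers had 3 of 4 above 0 in control arteries (median 0.96) and 4 of 4 in collateral arteries (median 0.92, and 0.56 without SHR collateral 3). At the same level 1 and 2 of the 4 were higher. Fibroblast markers had 7 of 8 above 0 in each (medians 0.35 and 0.22), and T and NK cell markers 2 of 6 and 3 of 6 (medians -0.19 and 0.04, the second -0.015 without SHR collateral 3). Smooth muscle markers had 2 of 7 above 0 in control arteries (median -0.17) and 1 of 7 in collateral arteries (median -0.75, and -0.33 without SHR collateral 3), where 3 of 7 were lower at an unadjusted p under 0.05, as were 3.61% of all probe sets. Neutrophil markers had 3 of 4 above 0 in control arteries (median 0.79) and 2 of 4 in collateral arteries (median -0.16, and -1.02 without SHR collateral 3), with a summed signal of 337 to 2271 in SHR control arteries, against 331 to 548 in WKY control arteries. Blood endothelium markers had 4 of 6 above 0 in each vessel type (medians 0.09 and 0.27, the second 0.034 without SHR collateral 3). Among them Icam2, an adhesion molecule of endothelium, fell by 3.62 ± 0.61 in SHR relative to WKY control arteries (limma, adjusted p = 0.0434), a call that was lost without the filter on low signal, where 0 probe sets were called. It is named after its value was seen. Adipocyte markers had 4 of 6 above 0 in each vessel type (medians 0.42 and 1.11), and mesothelium and blood markers 1 of 2 in each (mesothelium medians -0.27 and 0.08, the second -0.54 without SHR collateral 3). At an unadjusted limma p under 0.05, 1 fibroblast and 1 blood marker were higher in control arteries, and 1 adipocyte marker in collateral arteries. Of the blood endothelium markers 1 was lower in each vessel type and 1 was higher in collateral arteries. T and NK cell, neutrophil and mesothelium markers had 0 in either direction. The part of these cell types in the values of the 6 genes was not tested.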

How the data were processed

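Each Affymetrix rat array measured total RNA of mesenteric arteries. The deposited values are MAS5 signals, made by the authors with GCOS and MAS5 per the submitters' processing notes, and their 2% trimmed means lay near 1001 on all 15 arrays. Signals under 1 (12 values) were set to 1 before log2, and 59 control probe sets were left out. Of 8740 probe sets, 6512 were tested, those at or above the 40th percentile of signal on 3 arrays or more, in limma 3.58.1 (R 4.3.3), with 4 group means, a variance trend and Benjamini-Hochberg adjustment, two-sided. Symbols came from the platform annotation, and a gene with several probe sets was represented by that with the highest mean. Alternatives were other scalings, floors, filters, variance settings, array weights, sets of arrays, replicate blocks and leaving out each array; the random block by strain and replicate number was added after seeing the data. Beyond the 6 genes, up to 4 per list with the smallest p in control arteries were named. The 6 genes and all lists were chosen with earlier results of these data known. On simulated data with the strain contrast in control arteries, limma called 47.1% of probe sets changed by 2 on the log2 scale among 6512. For collateral against control arteries it called 57.7% in SHR and 50.8% in WKY of those changed by 2. Of those changed by 1 it called 10.6% in SHR and 7.6% in WKY, so changes of that size would mostly be missed. The simulated spread was normal. Many probe sets were changed at once, in the strain contrast 59 by 1, 68 by 2 and 73 by 3. The data had far fewer calls, so these shares may be too high for them.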

Additional observations from a re-analysis of the deposited data

Results flagged for a closer look

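In SHR collateral arteries the C1qb probe set X71127_at had its lowest signal, 533, on array 2, and its gap to the next array was 0.831 of the group's range, just past Dixon's critical value of 0.829 for 4 samples. It was the only such array among 27 groups of 4 examined for the 9 probe sets, and chance gives about 1 in 20. The cause was not tested.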

How the results depend on the processing

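The medians over the 6 genes moved by less than the spread between arrays under every alternative run, from 1.21 to 1.62 for SHR against WKY control arteries and from 1.10 to 1.61 for SHR against WKY collateral arteries. For the strain comparisons, each probe set of the 6 genes stayed within 1 SD as well. The probe sets called over the whole array, 2 in SHR against WKY control arteries, were 0 without a filter, 0 with a 60th percentile filter, 1 without the variance trend, 14 with array weights and 7 with only the groups compared, and 0 to 6 with 1 array left out. In SHR against WKY collateral arteries, with 0 called, they were 26 with array weights and 2 with only the groups compared, and 0 to 7 with 1 array left out. No count moved in the other comparisons, and of the 4 further lists only Hmox1 was ever called, in collateral arteries with array weights.

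Replicate numbers were not taken to pair the arrays: deviations of same-numbered collateral and control arrays correlated at 0.080, 0.063, 0.041 and -0.070 in SHR and at 0.306, 0.016 and 0.168 in WKY, so not every pair passed 0.1. Of 7 collateral arrays with a same-numbered control array, 5 correlated best with it, and SHR collateral 4 and WKY collateral 2 did not. The labels do not say whether same-numbered arrays are pairs, and these values did not decide it. With the added random block by strain and number, 0 probe sets were called in collateral against control arteries in either strain, and 0 for the difference between strains. Lyz2 in WKY was then 1.51. Another block joined arrays of the same number across both strains. With this replicate block, fixed or random, 4 probe sets were called in control and 6 in collateral arteries between strains, and a fixed block turned Aif1 U33471_at in WKY to 0.027 and the C1qb X71127_at difference between strains' changes to -0.051.

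Small vessel differences turned sign. In SHR, collateral against control, C1qb X71127_g_at was -0.081 with quantile normalization, -0.053 with equal medians, -0.058 with a constant added and -0.045 with array weights, and Cd53 was -0.17, -0.15 and -0.31 with quantile normalization, equal medians and array weights. In WKY, Aif1 U17919_s_at was 0.0067 with quantile normalization, 0.0028 with a constant and 0.11 with array weights. The C1qb X71127_at difference between strains' changes was -0.022 with equal medians. With 1 array left out, the SHR values ran from -0.83 to 0.69 for C1qb X71127_g_at, -0.17 to 0.94 for Aif1 U10894_s_at, -0.38 to 0.33 for Cd53 and -0.50 to 0.14 for Lgals3. The WKY values ran from -0.15 to 0.90 for C1qb X71127_g_at, -0.40 to 0.22 for Aif1 U17919_s_at, -0.53 to 0.14 for Aif1 U33471_at and -0.012 to 1.02 for Cd53. The differences between strains' changes ran from -0.37 to 0.73 for C1qb X71127_at, -1.27 to 0.28 for C1qb X71127_g_at, -1.15 to 0.093 for Lyz2, -0.35 to 0.16 for Lyve1 and -0.99 to 0.039 for Cd53. The causes were not tested. Signals under an array's 20th percentile limit Aif1 U10894_s_at and C1qb X71127_g_at most.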
